A study of Mus musculus with 24 samples.

Results

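Subcerebral projection neurons of postnatal day 1 (P1) mouse cortex were compared with corticothalamic projection neurons of the same age, both sorted by FACS from CD1 mice, an outbred laboratory strain. Genes entered the comparison where either column of the deposited table held at least 1 FPKM (mapped fragments scaled by transcript length and by library size), which kept 13258 of its 32310 entries. Each gene was described by the difference of log2(FPKM + 1), subcerebral minus corticothalamic, so a positive value means higher in subcerebral neurons. A gene is called 2-fold higher or lower where this difference reached 1 in either direction; the added 1 FPKM shrinks the difference of low genes. The wider study holds 24 libraries, from subcerebral, corticothalamic and callosal projection neurons at embryonic days 15, 16 and 18 (E15, E16, E18) and at P1, with 2 libraries in each of these 12 groups. No genotype or treatment is given for any group, and neither the sort markers nor the animals behind each library are stated in the labels. The table merges the 2 libraries of each group into a single value. It therefore holds no spread between replicates, no difference below was tested, and no value has an SD; the read depth behind each value is unknown.

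Both neuron types lie in the deep layers of the cortex and share a developmental origin. Subcerebral neurons, found in layer V, project to targets below the cerebrum such as the spinal cord, and their identity depends on the transcription factors Fezf2 and Bcl11b (CTIP2). Corticothalamic neurons, found in layer VI, send axons to the thalamus, and the T-box factor Tbr1 is needed for their identity and represses Fezf2 in them.

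Of the genes compared, 646 (4.87%) were at least 2-fold higher in subcerebral neurons and 560 (4.22%) were at least 2-fold lower, or 9.1% in either direction. The median difference over all compared genes was -0.0034. Of the genes past 2-fold, 584 higher and 514 lower ones carried a gene name, and the other 62 and 46 were loci known only by an assembly identifier. A value of exactly 0 on 1 side occurred in 17 of the genes past 2-fold. The genes nearest the threshold were Vgll3 at 1.0004 and Kpna2 at 0.9999, just inside and just outside it on the higher side, and SK3 at -1.0007 and Wdhd1 at -0.996 on the lower side. The plot of P1 levels shows the genes past 2-fold on both sides of the diagonal over the whole range of expression, with the most abundant of them, tubulins among them, on the subcerebral side.

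**Figure D1:**
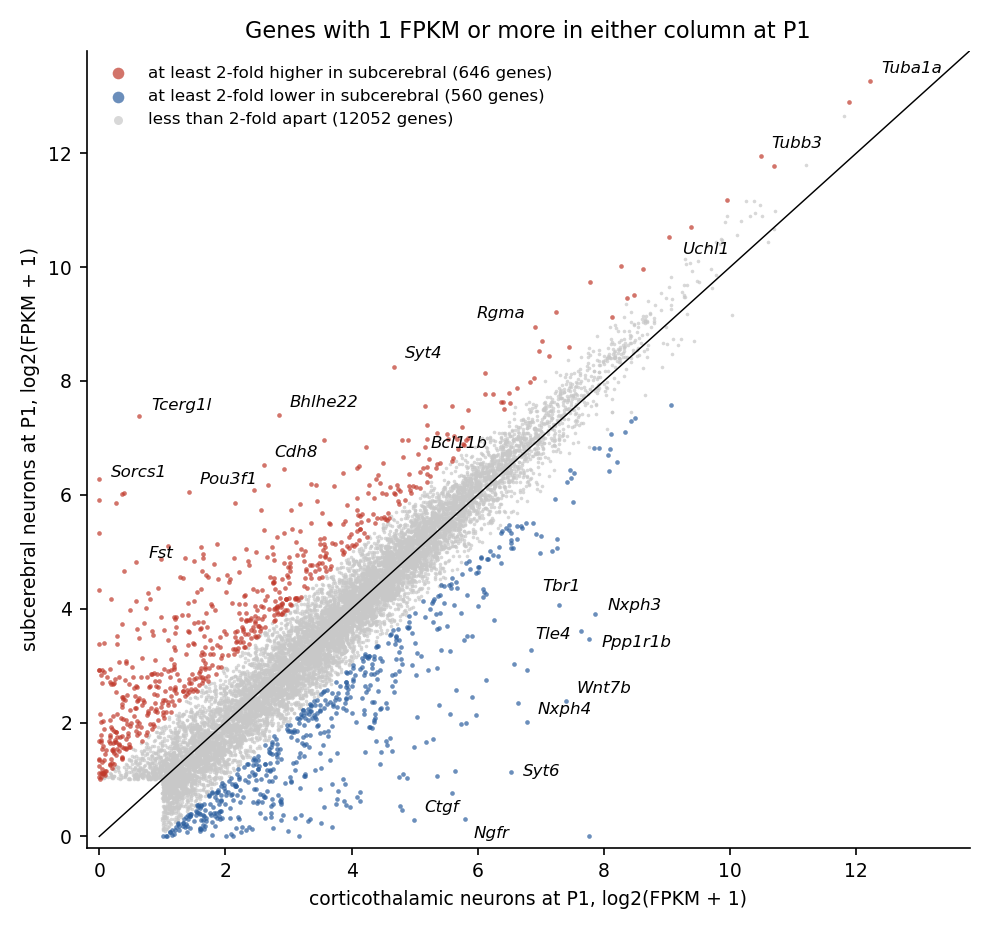
Level of each compared gene at P1 in subcerebral neurons (vertical) and corticothalamic neurons (horizontal), both as log2(FPKM + 1) of the authors' pooled values; the line marks equal levels. The 646 genes at least 2-fold higher in subcerebral neurons are red and the 560 lower ones blue, and named points such as Tcerg1l and Ngfr lie far from the line.

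The summed FPKM was 473871 in the subcerebral column and 406950 in the corticothalamic column, and the 50 most abundant entries held 19.5% of the subcerebral and 14.0% of the corticothalamic sum. Entries at 1 FPKM or more numbered 12563 in subcerebral and 12755 in corticothalamic neurons. With both columns scaled to the same sum the median difference moved by about 0.20 to -0.20, and the split became 494 higher and 792 lower, so that 38.4% of the genes past 2-fold were higher in subcerebral neurons, against 53.6% with the values as deposited. Differences below are on the deposited scale.

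The label of each population was checked first against 4 marker genes. Tcerg1l, named for its likeness to a transcription elongation regulator, stood at 166 FPKM in subcerebral and 0.539 FPKM in corticothalamic neurons, a difference of 6.76 and the largest among annotated genes on that side. Sorcs1, a VPS10-domain sorting receptor, had 63.9 FPKM in subcerebral and 0.28 FPKM in corticothalamic neurons. On the other side, Syt6, a synaptotagmin, had 1.20 FPKM in subcerebral and 90.9 FPKM in corticothalamic neurons, a 75.7-fold higher level in the corticothalamic column. Ngfr, the p75 neurotrophin receptor, had 0.23 FPKM in subcerebral and 54.5 FPKM in corticothalamic neurons. All 4 markers thus lay on the side of their label, with Syt6 nearest to 0 at -5.38, although Sorcs1 was also present at 13.1 FPKM in P1 callosal neurons while Ngfr was at 0.181 FPKM there. The markers, like the gene lists below, were chosen with results from these libraries known, so their direction is not independent evidence.

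The promoters of the genes with the largest difference on each side, among those with a value above 0 in both columns, are printed to show what lies at their start sites. They run from 250 bases before to 50 bases after the RefSeq start on GRCm38.p6, on the minus strand, for Tcerg1l at chr7:138397681-138397980 and for Ngfr at chr11:95587649-95587948, with each CG dinucleotide in capitals.
Tcerg1l: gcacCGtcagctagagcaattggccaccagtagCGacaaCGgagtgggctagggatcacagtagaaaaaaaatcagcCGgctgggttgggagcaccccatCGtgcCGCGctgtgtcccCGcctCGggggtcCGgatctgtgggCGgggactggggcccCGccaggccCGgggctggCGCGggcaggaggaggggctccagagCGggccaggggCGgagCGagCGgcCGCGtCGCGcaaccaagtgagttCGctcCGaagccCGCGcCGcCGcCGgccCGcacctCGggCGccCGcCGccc
Ngfr: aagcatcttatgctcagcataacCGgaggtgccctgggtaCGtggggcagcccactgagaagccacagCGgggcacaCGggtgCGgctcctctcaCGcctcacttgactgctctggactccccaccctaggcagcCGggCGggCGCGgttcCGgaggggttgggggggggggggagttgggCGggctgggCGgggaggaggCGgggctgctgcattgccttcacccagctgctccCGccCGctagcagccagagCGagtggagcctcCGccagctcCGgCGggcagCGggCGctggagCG
Both windows were rich in G and C, at 73% with 35 CG dinucleotides for Tcerg1l and 71.7% with 23 for Ngfr, against a median of 61.7% and 22 over the 8253 compared genes found in the RefSeq promoter table. Neither held the T-box core TCACAC, the POU octamer ATGCAAAT or the TATA box TATAAA on either strand. TCACAC stood in 7.69% of 377 promoters of genes at least 2-fold higher in subcerebral neurons, in 8.94% of 358 promoters of lower genes, in 10.3% of promoters of all compared genes and in 14.4% of the 27025 promoters in the table. The octamer stood in 1.59% of promoters of higher genes, 2.51% of lower genes and 1.26% of all compared genes. A match is a match of letters only, and nothing follows from it about binding.

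Of 64 cortical transcription factors and corepressors compared, 14 were at least 2-fold higher in subcerebral neurons and 14 lower, with a median of -0.13. With columns scaled to the same sum 12 were higher and 18 lower, with a median of -0.34. Bhlhe22, a basic helix-loop-helix repressor, had 168 FPKM in subcerebral and 6.18 FPKM in corticothalamic neurons (4.56). Pou3f1, a POU-domain factor, had 64.9 FPKM in subcerebral and 1.67 FPKM in corticothalamic neurons (4.62), and stood as high, at 75.5 FPKM, in callosal neurons. Bcl11b was 104 FPKM in subcerebral and 32.1 FPKM in corticothalamic neurons (1.66), whereas in callosal neurons it was 1.16 FPKM. Fezf2 was 127 FPKM in subcerebral and 65.8 FPKM in corticothalamic neurons, a difference of 0.93 that fell short of 2-fold. Ldb2, a LIM-domain binding cofactor, had 188 FPKM in subcerebral and 47.2 FPKM in corticothalamic neurons. The subcerebral regulators were thus higher in subcerebral neurons by different amounts, and both populations lay above the 11.4 FPKM of Fezf2 in callosal neurons.

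On the corticothalamic side stood Tle4, a Groucho-family corepressor, with 11.3 FPKM in subcerebral and 198 FPKM in corticothalamic neurons (-4.02). Tbr1 had 15.7 FPKM in subcerebral and 156 FPKM in corticothalamic neurons (-3.23), Zfpm2 (FOG2), a zinc finger cofactor, had 2.26 FPKM in subcerebral and 38.2 FPKM in corticothalamic neurons, and Foxp2, a forkhead factor, had 8.64 FPKM in subcerebral and 41.5 FPKM in corticothalamic neurons. Members of families diverged: Tle1 and Tle3, relatives of Tle4, were higher in subcerebral neurons, by 2.47 and 2.73. Foxp1 was 1.30 higher in subcerebral neurons, opposite to Foxp2. The nuclear factor I genes Nfia, Nfib and Nfix were all lower in subcerebral neurons, with differences of -3.08, -1.02 and -1.05.

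Over all compared genes 4.87% were higher and 4.22% lower, shares to set beside the counts of every list here and below. As lists, 18 of 27 subcerebral neuron genes were at least 2-fold higher and 2 lower (median 1.66). Of 26 corticothalamic neuron genes, 17 were lower and 4 higher (median -1.67). The exceptions were Mc4r, a melanocortin receptor, and Parm1 on the subcerebral list, lower in subcerebral neurons with differences of -2.18 and -1.36. On the corticothalamic list they were Dkkl1 (2.06), Lmo3 (1.73), Foxp1 (1.30) and Fam84b (1.22), higher in subcerebral neurons. Callosal neuron genes fell on both sides, 6 higher and 8 lower of 26, with a median of -0.31. Lpl, lipoprotein lipase, was the callosal gene farthest apart, with 3.37 FPKM in subcerebral and 61.6 FPKM in corticothalamic neurons, beside 145 FPKM in callosal neurons. Pvrl3, the adhesion protein nectin-3, had 16.1 FPKM in subcerebral and 1.66 FPKM in corticothalamic neurons, beside 56.7 FPKM in callosal neurons.

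**Figure D2:**
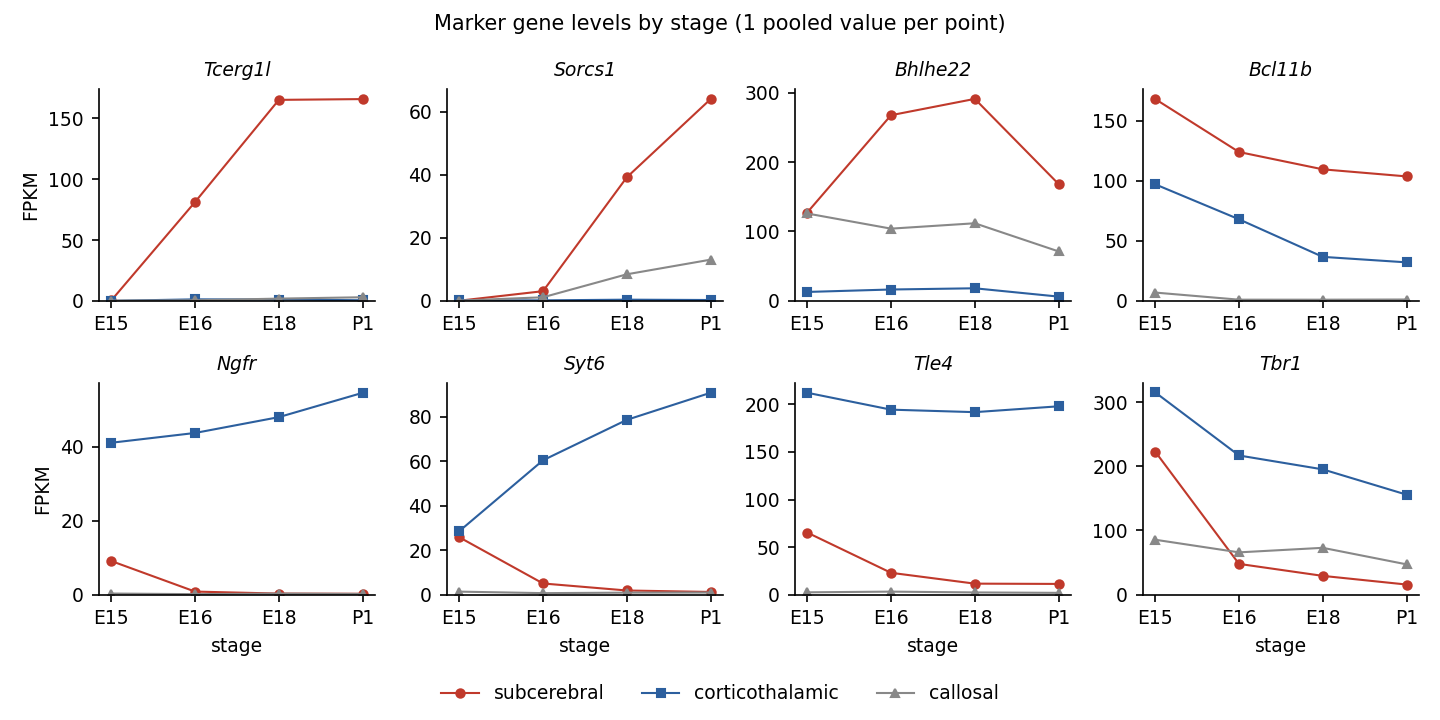
FPKM of 8 genes by stage in subcerebral (red circles), corticothalamic (blue squares) and callosal (grey triangles) neurons; each point is the authors' pooled value of 2 libraries, with no error. In subcerebral neurons Tcerg1l was at 0.343 FPKM at E15 and at 166 FPKM at P1, whereas Syt6 was at 25.8 FPKM in subcerebral and 28.5 FPKM in corticothalamic neurons at E15.

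The P1 differences were read beside those of the earlier stages, which share no libraries with P1. At E15, 137 genes (1.07%) were at least 2-fold higher in subcerebral neurons and 278 (2.16%) lower (3.23% in either direction). At E16 the counts were 314 (2.41%) higher and 384 (2.94%) lower (5.35% in either direction), and at E18 they were 516 (3.88%) higher and 465 (3.5%) lower (7.37% in either direction). The 2 populations were thus farther apart in number of genes at each later stage, and the higher genes outnumbered the lower ones at E18 and P1 but not at E15 and E16. That balance depends on the setting. At P1 the lower genes were more numerous with columns scaled to the same sum (494 higher and 792 lower) and with a pseudocount of 0.1 (889 and 944). Counts of the earlier stages under those settings are not given here. Of the genes higher at P1, 65 were also higher at E15, which is 10.1% of the P1 genes and 47.4% of the E15 genes. At E16 the shared genes numbered 209 (32.4% of the P1 genes and 66.6% of the E16 genes), and at E18 404 (62.5% and 78.3%). Among lower genes, 99 were shared with E15 (17.7% of the P1 and 35.6% of the E15 genes), 233 with E16 (41.6% and 60.7%) and 353 with E18 (63.0% and 75.9%). Across genes, the P1 difference correlated with that of E15 at r = 0.35 over 12150 genes, with E16 at r = 0.72 over 12436 and with E18 at r = 0.88 over 12771, where genes are not independent replicates and values at each stage share column scale. Past 2-fold in the same direction at all 4 stages were 49 higher and 81 lower genes, while 220 higher and 186 lower genes passed at P1 alone.

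Among the largest differences, several genes of the subcerebral side had a difference near 0 at E15. Arhgdib, a GDP-dissociation inhibitor of small GTPases, had 64.3 FPKM in subcerebral and 0.306 FPKM in corticothalamic neurons at P1 (5.64), against a difference of 0.15 at E15. Fam19a1, a secreted chemokine-like protein, had 56.7 FPKM in subcerebral and 0.202 FPKM in corticothalamic neurons at P1 and was listed at 0 in both at E15. Fst, which encodes follistatin, a secreted binder of activins, had 27.3 FPKM in subcerebral and 0.496 FPKM in corticothalamic neurons at P1 (4.24), with differences of -0.01, 0.88 and 2.73 at E15, E16 and E18. Bhlhe22 stood apart from these with a difference of 3.21 already at E15. Some of the lower genes were expressed in both populations early. Wnt7b, a Wnt ligand, was at 154 FPKM in subcerebral and 299.9 FPKM in corticothalamic neurons at E15, and at 4.18 FPKM in subcerebral and 168 FPKM in corticothalamic neurons at P1. Ppp1r1b, which encodes the protein phosphatase inhibitor DARPP-32, was at 82.7 FPKM in subcerebral and 126 FPKM in corticothalamic neurons at E15, and at 10.1 FPKM in subcerebral and 217 FPKM in corticothalamic neurons at P1. Others were low in both early on, such as Cryab, a small heat shock protein, at 0.602 FPKM in subcerebral and 2.22 FPKM in corticothalamic neurons at E15, and at 1.22 FPKM in subcerebral and 49.1 FPKM in corticothalamic neurons at P1.

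**Figure D3:**
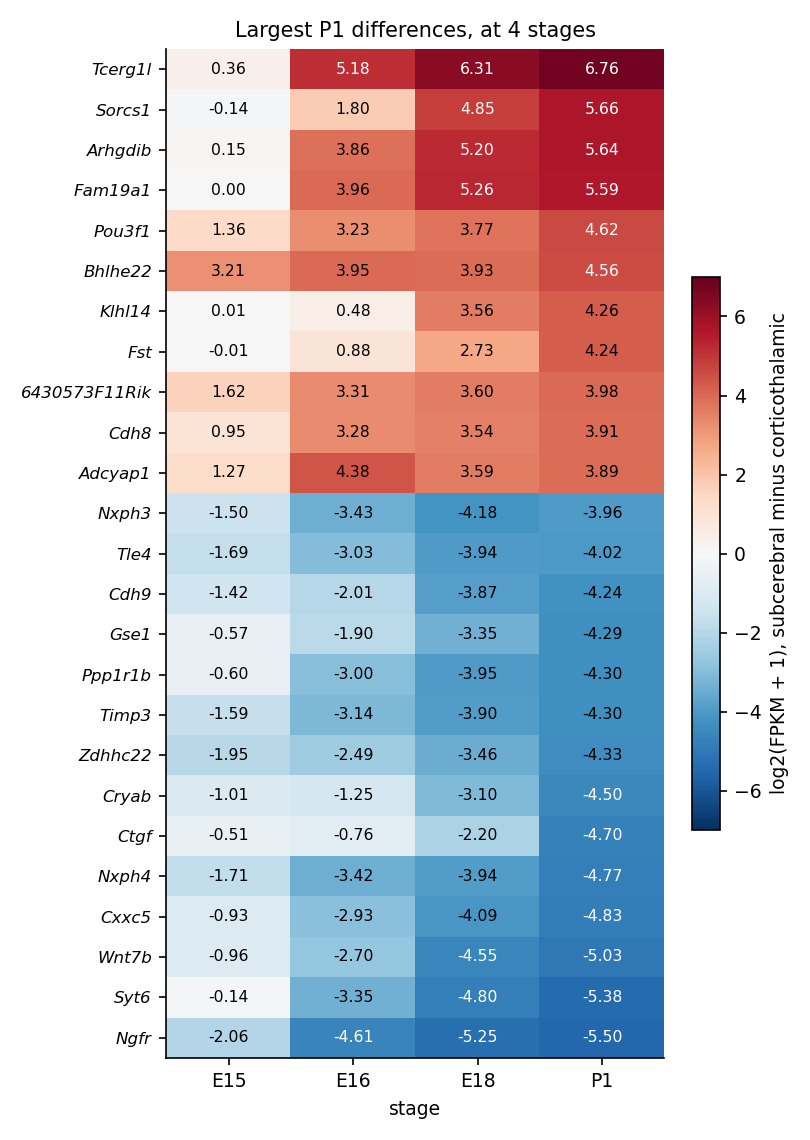
Difference of log2(FPKM + 1), subcerebral minus corticothalamic, at 4 stages for the annotated genes with the largest P1 differences and a P1 value above 0 in both populations; red is higher in subcerebral neurons and blue lower, and each cell prints its value. Tcerg1l runs through 0.36, 5.18, 6.31 and 6.76, and Ngfr through -2.06, -4.61, -5.25 and -5.50.

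Several entries lay outside the range of their earlier differences. Hes1, a Notch-responsive repressor, had 13.5 FPKM in subcerebral and 0.975 FPKM in corticothalamic neurons at P1 (2.88), against differences of -0.60, -0.26 and 1.08 before. Shh, the secreted ligand Sonic hedgehog, had 3.03 FPKM in subcerebral and 0.0217 FPKM in corticothalamic neurons at P1 (1.98), against 0.19 at E18. Npnt, an integrin-binding matrix protein, had 5.46 FPKM in subcerebral and 0.178 FPKM in corticothalamic neurons. On the lower side were Ctgf, a secreted matricellular protein, with 0.223 FPKM in subcerebral and 30.9 FPKM in corticothalamic neurons (-4.70, against -2.20 at E18), and Adra2a, an alpha-2 adrenergic receptor, with 0.234 FPKM in subcerebral and 9.12 FPKM in corticothalamic neurons. Cplx3, a complexin of the release machinery, had 0.251 FPKM in subcerebral and 7.58 FPKM in corticothalamic neurons (-2.78, against -0.44 at E18). An entry named TCR-beta chain had 2.22 FPKM in subcerebral and 22.3 FPKM in corticothalamic neurons at P1. Small RNA entries also met this description. Snora31 was listed at 0 in subcerebral neurons and at 217 FPKM in corticothalamic neurons at P1, and at 178 FPKM in subcerebral neurons and at 0 in corticothalamic neurons at E15. Snora44, Snora3 and Mir760 were listed at 0 in corticothalamic neurons at P1, with 58.8, 39.4 and 19.2 FPKM in subcerebral neurons, and no fold is given for them. Snora3 was listed at 0 in corticothalamic neurons at all 4 stages, and Mir760 in both populations at E15, E16 and E18.

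Subplate genes lay with the corticothalamic sort. Of 15 compared, 11 were at least 2-fold lower in subcerebral neurons and 1 higher, with a median of -1.63. All 15 reached 1 FPKM in corticothalamic and 10 in subcerebral neurons, so some entered only through the corticothalamic column, which favours lower values. With no filter 11 of 17 were lower and 1 higher, with a median of -1.28. The summed level of the list was 97.4 FPKM in subcerebral and 307.8 FPKM in corticothalamic neurons, beside 64.7 FPKM in callosal neurons. Nxph4, a neurexophilin that binds alpha-neurexins, had 3.03 FPKM in subcerebral and 109 FPKM in corticothalamic neurons. Ctgf and Cplx3, above, belong to this list, as does Nr4a2 (Nurr1), an orphan nuclear receptor, with 0.43 FPKM in subcerebral and 14.7 FPKM in corticothalamic neurons. Kcnab1, a potassium channel beta subunit, had 2.14 FPKM in subcerebral and 35.1 FPKM in corticothalamic neurons. The exception was Sema3e, a semaphorin, with 6.58 FPKM in subcerebral and 1.21 FPKM in corticothalamic neurons. In pooled cells, fewer cells of a type and less RNA per cell cannot be told apart, and the part of subplate cells in the differences was not tested.

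Interneuron genes were also lower in subcerebral neurons in part: 0 of 11 were 2-fold higher and 5 lower, with a median of -0.88. All 11 reached 1 FPKM in corticothalamic and 6 in subcerebral neurons, so some entered only through the corticothalamic column, which favours lower values. With no filter 5 of 22 were lower, with a median of -0.53. The lower count was 1 with a pseudocount of 5 and 9 with a pseudocount of 0.1. The list had a summed level of 426.8 FPKM in subcerebral and 732.0 FPKM in corticothalamic neurons. Most of that sum was Npy, neuropeptide Y, at 415 FPKM in subcerebral and 687 FPKM in corticothalamic neurons and at 394 FPKM in callosal neurons. The defining enzyme Gad1, which makes GABA, was at 0.604 FPKM in subcerebral and 1.93 FPKM in corticothalamic neurons, and Lhx6, a factor of interneurons from the medial ganglionic eminence, at 0.745 FPKM in subcerebral and 3.00 FPKM in corticothalamic neurons. Sst, somatostatin, had 2.77 FPKM in subcerebral and 18.4 FPKM in corticothalamic neurons. Reln, the secreted protein reelin of Cajal-Retzius cells, ran the other way, with 44.2 FPKM in subcerebral and 9.20 FPKM in corticothalamic neurons, most of the summed 44.9 FPKM in subcerebral and 11.5 FPKM in corticothalamic neurons of that list. Only 2 of the 8 genes on that list were compared. The other was lower in subcerebral neurons, with a difference of -0.91, so the direction of Reln is that of a single gene. Other cell types lay closer in summed level. Astrocyte and radial glia genes summed to 237 FPKM in subcerebral and 215 FPKM in corticothalamic neurons, with 0 of 11 higher and 1 lower and a median of -0.58, opposite in sign to the sums. Sparcl1, a secreted matrix glycoprotein, held much of both sums, at 145 FPKM in subcerebral and 111 FPKM in corticothalamic neurons. Oligodendrocyte genes summed to 24.1 FPKM in subcerebral and 19.7 FPKM in corticothalamic neurons, with 2 of 6 higher and 0 lower and a median of -0.13, again opposite in sign. The 2 were the myelin genes Mbp, at 11.6 FPKM in subcerebral and 4.92 FPKM in corticothalamic neurons, and Cnp, at 4.55 FPKM in subcerebral and 1.21 FPKM in corticothalamic neurons. With columns scaled to the same sum the oligodendrocyte list had 1 higher and 1 lower. Vascular genes summed to 12.8 FPKM in subcerebral and 14.1 FPKM in corticothalamic neurons, with 0 of 4 past 2-fold, and red blood cell genes to 4.92 FPKM in subcerebral and 5.23 FPKM in corticothalamic neurons. Progenitor and cycling cell genes summed to 82.9 FPKM in subcerebral and 89.0 FPKM in corticothalamic neurons, with 2 of 8 higher and 1 lower. For microglia genes the sum was 34.2 FPKM in subcerebral and 20.8 FPKM in corticothalamic neurons. The microglial genes C1qa, C1qc and Fcer1g were listed at 0 in subcerebral neurons, and Fcer1g in corticothalamic neurons as well. The part of these cells in any difference was not tested.

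**Figure D4:**
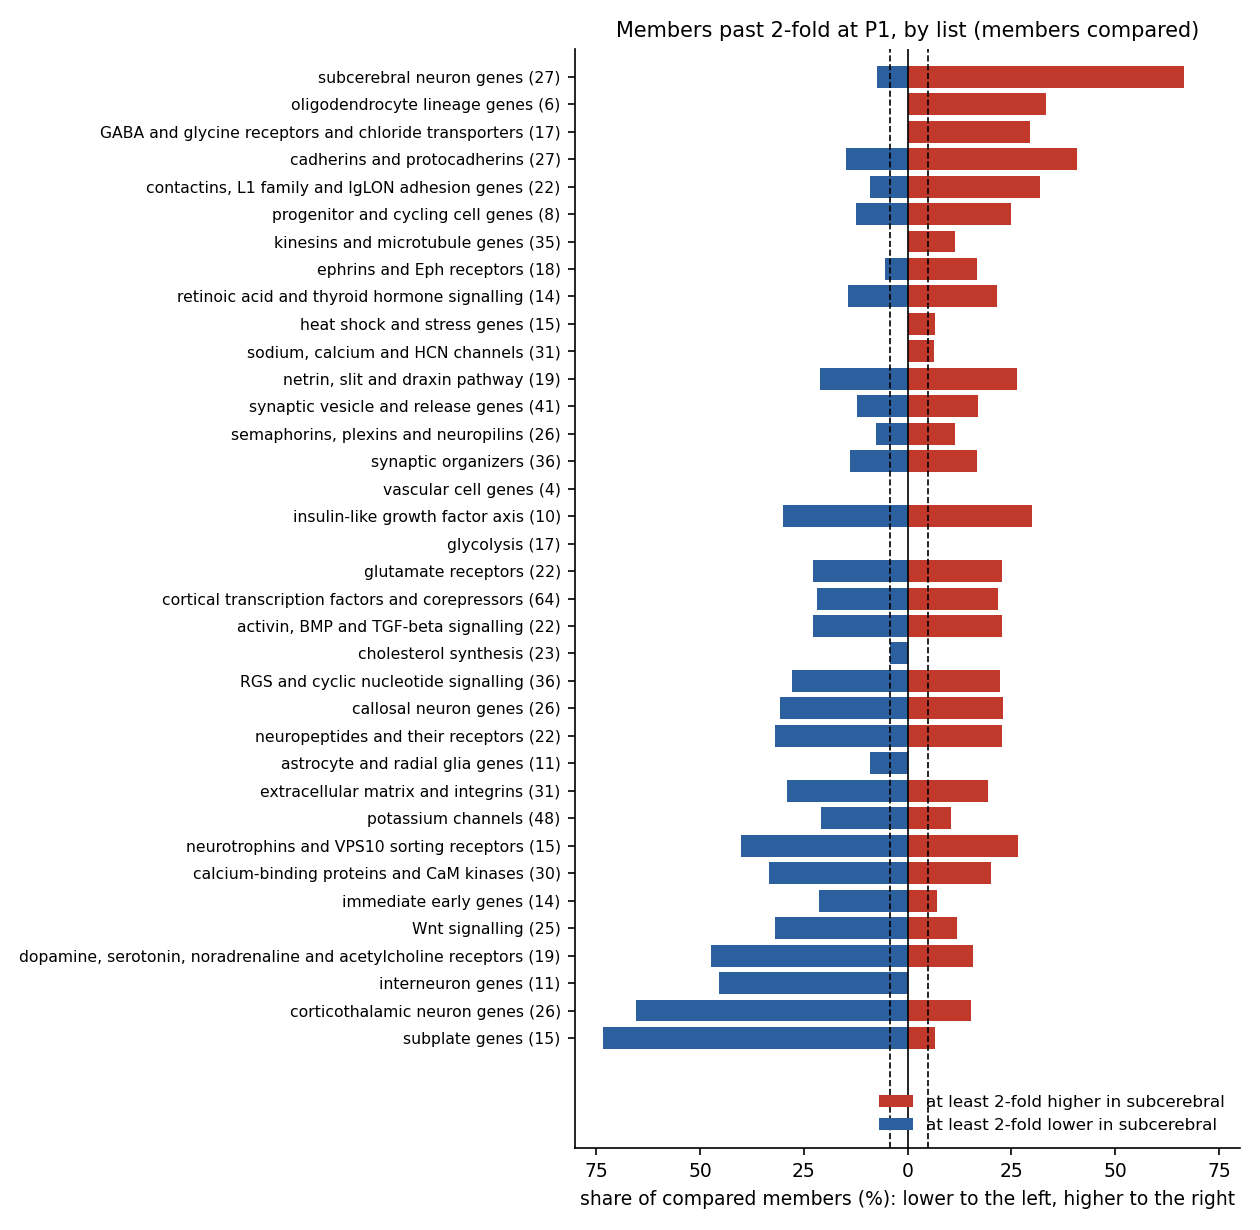
Share of each list's compared members at least 2-fold higher (red, right) or lower (blue, left) in subcerebral neurons at P1, with the number of members compared in brackets and lists of under 3 compared members left out. Dashed lines mark the shares over all compared genes, 4.87% higher and 4.22% lower, and the subcerebral list is at the top and the subplate list at the bottom.

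Axon guidance genes differed on both sides, to be read beside 4.87% higher and 4.22% lower over all compared genes. Of 19 genes of the netrin, slit and draxin pathway, which guides axons across the midline, 5 were higher and 4 lower (median 0.20). Robo1, a slit receptor, had 50.4 FPKM in subcerebral and 10.5 FPKM in corticothalamic neurons (2.15). Rgma, a repulsive guidance molecule, had 494 FPKM in subcerebral and 119 FPKM in corticothalamic neurons, and its receptor Neo1 (neogenin) had 123 FPKM in subcerebral and 28.7 FPKM in corticothalamic neurons. The ligand was 4.15-fold and the receptor 4.30-fold higher in subcerebral neurons. In callosal neurons Neo1 was at 149 FPKM and Rgma at 38.7 FPKM. Ligands and receptors of the other sign included Slit1, with 14.9 FPKM in subcerebral and 36.8 FPKM in corticothalamic neurons, and the netrin receptor Dcc, with 0.858 FPKM in subcerebral and 3.47 FPKM in corticothalamic neurons. Among 26 semaphorins, plexins and neuropilins 3 were higher and 2 lower (median -0.04), with Sema3c, a secreted semaphorin, at 22.5 FPKM in subcerebral and 2.30 FPKM in corticothalamic neurons and the plexin Plxnd1 at 1.13 FPKM in subcerebral and 4.55 FPKM in corticothalamic neurons. Among 18 ephrins and Eph receptors 3 were higher and 1 lower (median 0.26), led by Epha8 at 16.04 FPKM in subcerebral and 3.97 FPKM in corticothalamic neurons and Epha3 at 0.952 FPKM in subcerebral and 7.19 FPKM in corticothalamic neurons. With columns scaled to the same sum, the median of the netrin and slit list changed sign, and the semaphorin counts changed side.

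Adhesion genes past 2-fold were more often higher than lower in subcerebral neurons, beside 4.87% higher and 4.22% lower over all compared genes. Of 27 cadherins and protocadherins, which join cells through like binding like, 11 were higher and 4 lower, with a median of 0.32. Cdh8, a type II cadherin, had 91.0 FPKM in subcerebral and 5.11 FPKM in corticothalamic neurons (3.91), and its relative Cdh9 had 0.448 FPKM in subcerebral and 26.3 FPKM in corticothalamic neurons (-4.24). Pcdh8, a protocadherin, had 34.1 FPKM in subcerebral and 2.66 FPKM in corticothalamic neurons. The highest cadherin, Cdh2 (N-cadherin), was within 2-fold at 105 FPKM in subcerebral and 173 FPKM in corticothalamic neurons. Of 22 contactin, L1 and IgLON family genes, 7 were higher and 2 lower (median 0.45). With columns scaled to the same sum, the cadherin list had 11 higher and 6 lower (median 0.12). The contactin, L1 and IgLON list then had 6 higher and 3 lower (median 0.27). Contactins Cntn6 and Cntn3 were higher in subcerebral neurons, Cntn6 at 87.1 FPKM in subcerebral against 6.59 FPKM in corticothalamic neurons, and Cntn2 (TAG-1) was lower, at 32.3 FPKM in subcerebral against 152 FPKM in corticothalamic neurons. Ncam2, a neural cell adhesion molecule, had 13.7 FPKM in subcerebral and 1.48 FPKM in corticothalamic neurons. Synaptic organizers showed 6 higher and 5 lower of 36, with a median of 0.05 that changed sign with columns scaled to the same sum and with quantile normalization. The neurexophilins Nxph3 and Nxph4 were lower in subcerebral neurons, with differences of -3.96 and -4.77, and Ntng1 (netrin-G1), a membrane-bound relative of netrins, was higher at 3.11.

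**Figure D5:**
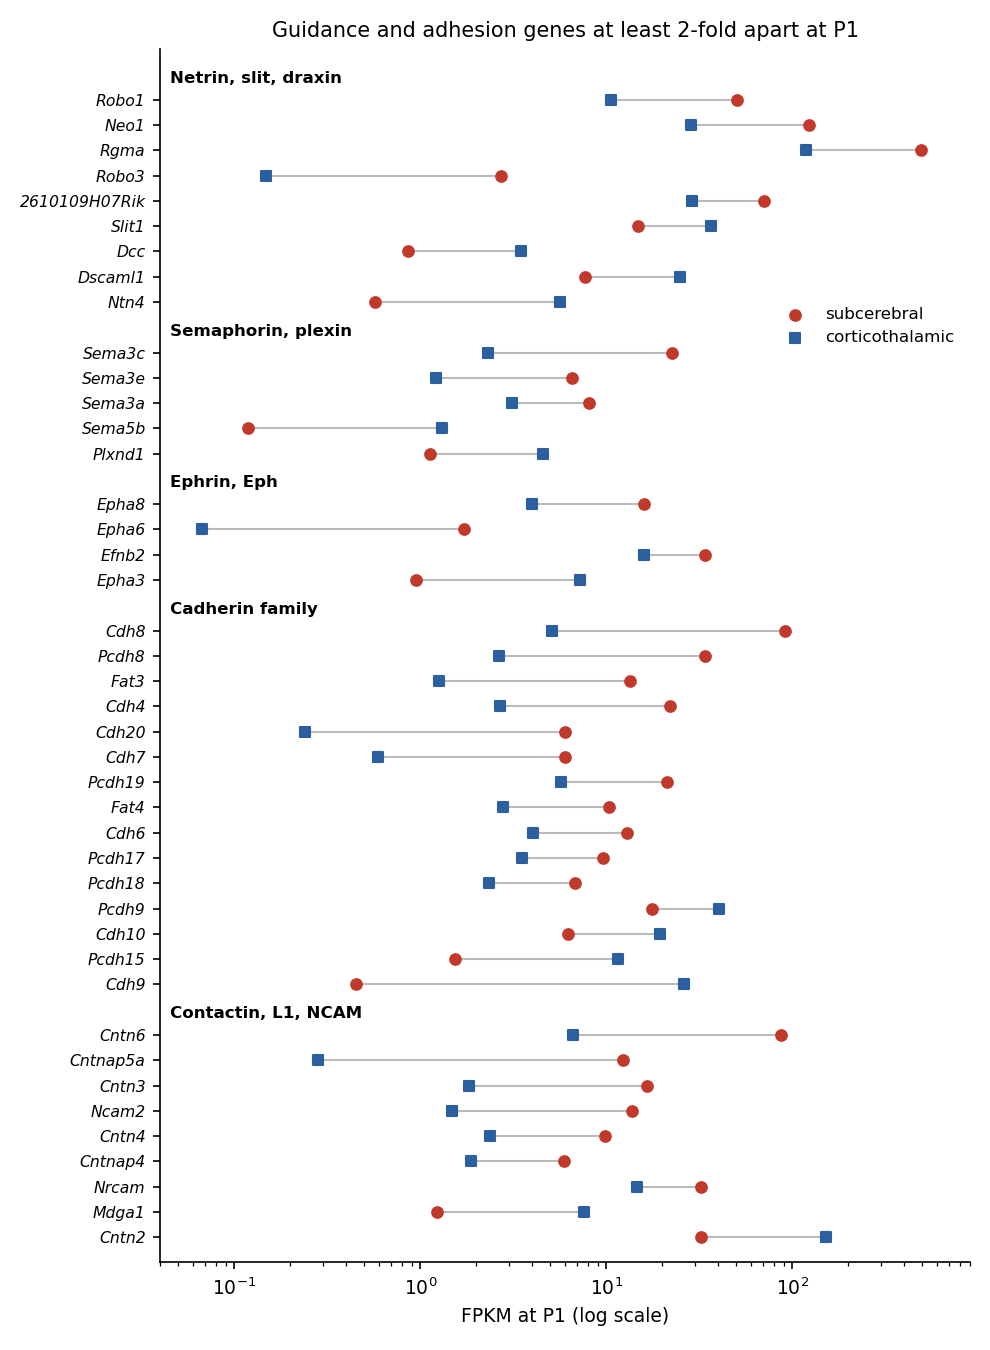
FPKM at P1 (log scale) of the guidance and adhesion genes at least 2-fold apart, with subcerebral neurons as red circles and corticothalamic neurons as blue squares joined by a line for each gene. The cadherin and contactin families hold more genes with the red point to the right than with it to the left, 11 against 4 and 7 against 2.

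Secreted factors and their receptors were divided between the populations, beside 4.87% higher and 4.22% lower over all compared genes. Neurotrophin and VPS10 receptor genes held 4 higher and 6 lower of 15 (median -0.69), counts that changed side with a pseudocount of 5, a minimum of 5 FPKM or a 3-fold threshold. Besides Sorcs1, Rtn4rl1, a relative of the Nogo receptor, had 27.8 FPKM in subcerebral and 1.82 FPKM in corticothalamic neurons. Ntrk3, the receptor of neurotrophin-3, had 32.5 FPKM in subcerebral and 91.6 FPKM in corticothalamic neurons. Of 25 Wnt pathway genes 3 were higher and 8 lower (median -0.42): Rspo2, an R-spondin that strengthens Wnt signals, had 22.4 FPKM in subcerebral and 1.43 FPKM in corticothalamic neurons, and besides Wnt7b the ligands Wnt7a, Wnt4, Wnt5b and Wnt9a were lower, with differences of -1.48, -1.39, -1.11 and -1.04. Wnt7a, Wnt4, Wnt5b and Wnt9a were under 5 FPKM in both columns. A minimum of 5 FPKM left 1 higher and 2 lower of 10, the lower ones being Wnt7b and Dkk3. With a pseudocount of 5, 1 was higher and 2 lower of 25. In the activin, BMP and TGF-beta list 5 were higher and 5 lower of 22, with a median of 0.06 that changed sign with columns scaled to the same sum, with a minimum of 5 FPKM and with no filter. Fst, Tgfb2 and the receptor Tgfbr1 (81.3 FPKM in subcerebral and 29.1 FPKM in corticothalamic neurons) were higher, and Gdf10 and Bmp3, both BMP-family ligands, were lower, Gdf10 at 2.19 FPKM in subcerebral and 19.9 FPKM in corticothalamic neurons. The insulin-like growth factor axis held 3 higher and 3 lower of 10 (median -0.09), with the binding proteins split: Igfbp5 had 44.0 FPKM in subcerebral and 11.6 FPKM in corticothalamic neurons, and Igfbp3 had 6.18 FPKM in subcerebral and 31.6 FPKM in corticothalamic neurons. Retinoic acid and thyroid hormone genes held 3 higher and 2 lower of 14 (median -0.02). Crym, which binds thyroid hormone in the cytosol, had 149 FPKM in subcerebral and 35.5 FPKM in corticothalamic neurons.

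Extracellular matrix genes held 6 higher and 9 lower of 31 (median -0.46), beside 4.87% higher and 4.22% lower over all compared genes. Of these, 23 reached 1 FPKM in subcerebral and 27 in corticothalamic neurons, so the filter favours lower values. With no filter 6 of 49 were higher and 9 lower (median -0.16). With a pseudocount of 5, 2 of 31 were higher and 6 lower. Timp3, an inhibitor of matrix metalloproteinases, had 1.08 FPKM in subcerebral and 39.9 FPKM in corticothalamic neurons. Podn, a leucine-rich proteoglycan, had 1.03 FPKM in subcerebral and 28.3 FPKM in corticothalamic neurons, and Adamts3, a secreted metalloprotease, had 1.07 FPKM in subcerebral and 25.9 FPKM in corticothalamic neurons. The 5 members of this list farthest apart, with Col23a1 and Col5a1, were all lower in subcerebral neurons.

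Past 2-fold, genes of the GABA and glycine list were more often higher in subcerebral neurons. Those of the monoamine and acetylcholine list were more often lower. The shares over all compared genes were 4.87% higher and 4.22% lower, and neither list was tested. Of 17 GABA, glycine and chloride transporter genes 5 were higher and 0 lower (median 0.56). All 17 reached 1 FPKM in subcerebral and 14 in corticothalamic neurons, so some entered only through the subcerebral column, which favours higher values. With no filter 5 of 18 were higher (median 0.56), and with a pseudocount of 5, 3 of 17 were. Gabra5, a GABA-A receptor subunit, had 70.5 FPKM in subcerebral and 12.2 FPKM in corticothalamic neurons, and Glra2, a glycine receptor subunit, had 71.1 FPKM in subcerebral and 18.3 FPKM in corticothalamic neurons. The delta subunit Gabrd had 22.6 FPKM in subcerebral and 5.50 FPKM in corticothalamic neurons. Of 19 dopamine, serotonin, noradrenaline and acetylcholine receptor genes, a list that includes Ppp1r1b, 3 were higher and 9 lower (median -0.35). Here 13 reached 1 FPKM in subcerebral and 18 in corticothalamic neurons, so the filter favours lower values. With no filter 3 of 33 were higher and 9 lower (median -0.15). With a pseudocount of 5, 0 were higher and 4 lower. Drd1a, the D1 dopamine receptor, had 4.86 FPKM in subcerebral and 20.4 FPKM in corticothalamic neurons, and Chrna4, a nicotinic receptor subunit, had 3.47 FPKM in subcerebral and 15.1 FPKM in corticothalamic neurons. The accessory nicotinic subunit Chrna5 ran the other way, with 5.26 FPKM in subcerebral and 0.504 FPKM in corticothalamic neurons. Glutamate receptor genes split into 5 higher and 5 lower of 22 (median -0.02). Grm7, a metabotropic receptor, had 26.5 FPKM in subcerebral and 2.53 FPKM in corticothalamic neurons, Gria3, an AMPA receptor subunit, had 3.02 FPKM in subcerebral and 19.4 FPKM in corticothalamic neurons, and the kainate subunits divided, with Grik2 at a difference of 2.06 and Grik3 and Grik4 at -1.88 and -3.35.

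Of 31 sodium, calcium and HCN channel genes 2 (6.45%) were higher and 0 lower (median 0.11), beside 4.87% higher and 4.22% lower over all compared genes. Of 48 potassium channel genes 5 (10.4%) were higher and 10 (20.8%) lower (median -0.09). With columns scaled to the same sum the sodium, calcium and HCN list had 1 higher and 3 lower and a median of -0.10, and the difference between these families was not tested. Kcnk9, a leak potassium channel, had 0.611 FPKM in subcerebral and 15.996 FPKM in corticothalamic neurons, and Kcnq5, an M-current channel, had 17.8 FPKM in subcerebral and 3.93 FPKM in corticothalamic neurons. Of 41 synaptic vesicle and release genes 7 were higher and 5 lower, with a median of 0.14 that changed sign with columns scaled to the same sum. Synaptotagmins stood at both ends: Syt4 had 304 FPKM in subcerebral and 24.6 FPKM in corticothalamic neurons (3.57), opposite to Syt6, and was also at 264 FPKM in callosal neurons.

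Genes of neuropeptides and their receptors numbered 5 higher and 7 lower of 22 (median -0.63). Over all compared genes 4.87% were higher and 4.22% lower. With no filter 5 of 38 were higher and 7 lower, with a median of -0.17. The list includes the neurexophilin Nxph4 (-4.77), also counted above among subplate genes and synaptic organizers. Adcyap1, which encodes the peptide PACAP, had 28.3 FPKM in subcerebral and 0.98 FPKM in corticothalamic neurons, and Sstr1, a somatostatin receptor, had 28.8 FPKM in subcerebral and 1.57 FPKM in corticothalamic neurons. Trh, thyrotropin-releasing hormone, had 1.01 FPKM in subcerebral and 13.6 FPKM in corticothalamic neurons. Signalling through cyclic nucleotides and G proteins held 8 higher and 10 lower of 36 (median -0.33). Both subunits of soluble guanylate cyclase, the receptor for nitric oxide, were higher: Gucy1a3 had 52.2 FPKM in subcerebral and 4.94 FPKM in corticothalamic neurons, and Gucy1b3 had 87.4 FPKM in subcerebral and 15.9 FPKM in corticothalamic neurons. In callosal neurons Gucy1a3 was at 132 FPKM and Gucy1b3 at 87.3 FPKM, so their level was not particular to subcerebral neurons. Rgs8 and Rgs16, which speed the shut-off of G proteins, were lower in subcerebral neurons, with differences of -2.73 and -2.41. Calcium-binding proteins split into 6 higher and 10 lower of 30 (median -0.15), with S100a10, an annexin partner, at 187 FPKM in subcerebral and 34.7 FPKM in corticothalamic neurons and the sensor Hpca (hippocalcin) at 31.1 FPKM in subcerebral and 144 FPKM in corticothalamic neurons.

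Cytoskeletal genes supplied the highest levels among annotated genes past 2-fold. Tuba1a, an alpha-tubulin, had 9825 FPKM in subcerebral and 4789 FPKM in corticothalamic neurons (1.04). Tubb3, the neuronal beta-tubulin, had 3957 FPKM in subcerebral against 1430.4 FPKM in corticothalamic neurons (1.47), and Tubb2b had 3519 FPKM in subcerebral and 1667 FPKM in corticothalamic neurons (1.08). Uchl1, a neuronal ubiquitin hydrolase, had 1471 FPKM in subcerebral and 525 FPKM in corticothalamic neurons, and Fabp5, a fatty acid binding protein, had 857 FPKM in subcerebral and 219 FPKM in corticothalamic neurons. Of 35 kinesin and microtubule genes 4 were higher and 0 lower, with a median of 0.44, and the 4 were the tubulins named here and Mtap1b (388 FPKM in subcerebral and 173 FPKM in corticothalamic neurons), the microtubule-associated protein 1B. With both columns scaled to the same sum, Tuba1a, Tubb2b and Mtap1b were higher by less than 2-fold, and with quantile normalization Tubb3 was as well. Tubulin genes have close copies, so reads may be split between them. Gap43, a growth cone protein, was within 2-fold at 1129.5 FPKM in subcerebral and 621 FPKM in corticothalamic neurons.

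Heat shock, glycolysis and cholesterol synthesis genes were past 2-fold in small numbers, as were 9.1% of all compared genes, so these counts set none of those lists apart. Of 15 heat shock and stress genes 1 was higher and 0 lower (median 0.10, below 0 with columns scaled to the same sum), of 17 glycolysis genes none was past 2-fold in either direction (median 0.33), and of 23 cholesterol synthesis genes 1 was lower and 0 higher (median 0.38). Of 14 immediate early genes 1 (7.14%) was higher and 3 (21.4%) lower (median -0.37), against 4.87% higher and 4.22% lower over all compared genes. The lower share was thus above that of all genes but rested on 3 genes, and it was not tested. With a pseudocount of 5, 0 were higher and 1 lower. Egr1, an activity-induced zinc finger factor, had 0.912 FPKM in subcerebral and 6.70 FPKM in corticothalamic neurons.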

How the data were processed

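RNA of FACS-sorted cells was sequenced after poly(A) selection, per the labels' protocols. Per the submitters' processing notes, the authors used TopHat2 and Cufflinks with the mouse build mm9; how the 2 libraries were merged, like versions, annotation and strand, is not stated there. The deposited header names no unit, and the values were read as FPKM from the use of Cufflinks and from their range. A value of 0 is given as listed at 0. From these values, log2(FPKM + 1) differences (Python 3.11.15, pandas 2.3.3, numpy 2.4.6) were computed for entries with at least 1 FPKM in either column. The table holds 1 value a group, so no test was possible. The arithmetic of the steps was checked on simulated data, with known fold changes put into the P1 corticothalamic column without noise. That check covered neither low values nor spread between libraries. Lists (39, holding 1010 genes, of which 999 matched by symbol, 8 by another symbol and 3 not at all) are described by counts and medians, beside those of all compared genes.

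The genes, markers and lists were chosen with earlier results of these data known. Named genes are the 15 annotated entries farthest apart on each side, the 4 markers, up to 4 members past 2-fold and the highest member of each list, the 8 on each side farthest outside their earlier differences, and the 8 most abundant past 2-fold, 166 in all. Some members of the lists are not reported here. Other named genes were chosen after their values were seen. Alternatives were other pseudocounts, filters, scalings and a 3-fold threshold.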

Additional observations from a re-analysis of the deposited data

Results flagged for a closer look

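At P1, 26 genes were past 2-fold in the direction opposite to an earlier stage, among 32 annotated genes that did so, after those with any of their 8 values below 0.05 FPKM were left out. Each effect rests on a single pooled value per group, and the difference between stages was not tested.

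Higher in subcerebral neurons at P1 but at least 2-fold lower at E15, E16 or both were Rspo2 (3.27 at P1), Trpc4 (2.52), Gabra5 (2.44), 3930401K13Rik (2.07), Igfbp5 (1.84), Pde1a (1.82), Lmo3 (1.73), Hs6st1 (1.68), Pcp4 (1.66), Cacna2d3 (1.57), Nrgn (1.56), Htr2a (1.54), Cdk14 (1.49), Rasgrf2 (1.43), Scg2 (1.36), Cntnap4 (1.26), Snora28 (1.25), Prmt8 (1.18), Pdzrn3 (1.05), Adamts17 (1.02) and Grb10 (1.01). Pcp4, a calmodulin-binding protein, had 180 FPKM in subcerebral and 56.3 FPKM in corticothalamic neurons at P1, and 6.09 FPKM in subcerebral and 25.8 FPKM in corticothalamic neurons at E15. Nrgn, neurogranin, another calmodulin-binding protein, had 368 FPKM in subcerebral and 124 FPKM in corticothalamic neurons at P1, and 7.55 FPKM in subcerebral and 19.5 FPKM in corticothalamic neurons at E16. Both were thus low in the subcerebral column first and highest there at P1. Some earlier differences only just passed 2-fold: Grb10 and Hs6st1 at E15 (-1.001 and -1.004) and Pdzrn3 at E16 (-1.001). Adamts17 was lower at E16 (-1.07) but higher at E15 (1.41), and low at P1, at 1.62 FPKM in subcerebral and 0.286 FPKM in corticothalamic neurons.

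Lower in subcerebral neurons at P1 but at least 2-fold higher earlier were Fgfr2 (-1.49), Gm7819 (-1.22), Hmgcs1 (-1.08), Abcc8 (-1.07) and Kcnj11 (-1.01). Abcc8 and Kcnj11 encode the subunits of the same ATP-sensitive potassium channel. At P1, Abcc8 had 10.6 FPKM in subcerebral and 23.4 FPKM in corticothalamic neurons and Kcnj11 had 8.21 FPKM in subcerebral and 17.6 FPKM in corticothalamic neurons, whereas at E15 Abcc8 had 77.3 FPKM in subcerebral and 25.4 FPKM in corticothalamic neurons and Kcnj11 had 44.7 FPKM in subcerebral and 15.7 FPKM in corticothalamic neurons.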

How the results depend on the processing

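Counts were within 1.5 times of the 646 higher and 560 lower genes in every other setting except these: a pseudocount of 0.1 gave 944 lower genes beside 889 higher, a pseudocount of 5 gave 308 higher and 239 lower, and a 3-fold threshold gave 269 higher and 203 lower. A minimum of 5 FPKM gave 492 higher and 404 lower, median-ratio scaling 640 and 560, quantile normalization 652 and 545, and columns scaled to the same sum 494 and 792. Of the 166 genes chosen by the rule, none past 2-fold reversed its direction under another pseudocount, filter or scaling; the minimum of 5 FPKM left 147 of them. Genes within 2-fold could reverse, as Rprm and Gabbr1 did with columns scaled to the same sum and with quantile normalization. Genes named outside the rule were not followed singly. The share of P1 genes also past 2-fold in the same direction at E18, 62.8%, ran from 59.1% to 63.2%. Lists with more higher than lower members numbered 15 of 36, and 10 with columns scaled to the same sum or with a 3-fold threshold; in the first of these the medians of 6 lists changed sign, those of the netrin and slit, synaptic organizer, activin and BMP, sodium, calcium and HCN channel, synaptic vesicle and heat shock lists. The minimum of 5 FPKM changed the sign for the progenitor, semaphorin and activin lists, no filter for the vascular, activin and retinoic acid lists, and quantile normalization for the synaptic organizer list. No paired analysis was possible because each group has 1 pooled column, and for the same reason no library could be left out. Depth is unknown, so low values have no interval, and short or near-identical genes are uncertain.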

Other observations

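Among entries outside the lists, Klhl14, of the kelch-like family, had 24.3 FPKM in subcerebral and 0.316 FPKM in corticothalamic neurons at P1, and differences of 0.01, 0.48 and 3.56 at E15, E16 and E18. Enc1, an actin-binding kelch protein, had 1033 FPKM in subcerebral and 307 FPKM in corticothalamic neurons. Cxxc5, a CXXC zinc finger protein, had 0.699 FPKM in subcerebral and 47.5 FPKM in corticothalamic neurons. Zdhhc22, of the palmitoyltransferase family, had 0.387 FPKM in subcerebral and 26.9 FPKM in corticothalamic neurons. Gse1 was at 94.4 FPKM in subcerebral and 141 FPKM in corticothalamic neurons at E15, and at 4.10 FPKM in subcerebral and 99.0 FPKM in corticothalamic neurons at P1. The subcerebral level of Gse1 was lower at each later stage, at 32.7 FPKM at E16 and 10.3 FPKM at E18.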
